A study of Mus musculus with 4 samples.

Results

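The genes described here are 5 genes linked to neutrophils, S100a8, S100a9, Retnlg, Ngp and Chi3l1, taken by their symbols from the 23284 gene symbols of each deposited file. They were chosen by their FPKM in these same libraries, where the knockout-labelled values stood far from the wild-type ones, so their levels and differences are a description and no test was made on them. The values come from RNA sequencing of stromal cells sorted from the mouse large intestine: living, podoplanin-positive cells without the surface proteins CD45, CD31 and EpCAM. The 4 groups were C57BL/6J mice labelled IL-10 knockout, wild-type C57BL/6J mice, BALB/c mice labelled Rag2 knockout and wild-type BALB/c mice. Each group has 1 library, so no value has a replicate error, and a gene called higher or lower is so between single libraries. The labels give neither the ages of the animals nor how many went into a library. The knockouts are described as whole-animal genotypes, and mice without Rag2 form no mature T or B cells.

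S100A8 and S100A9 are small calcium-binding proteins that pair to form calprotectin, an abundant protein of the neutrophil cytosol. Calprotectin withholds zinc and manganese from microbes and, once released, acts as an alarm signal; its level in stool is used to follow gut inflammation. Ngp encodes the neutrophilic granule protein, a relative of cathelicidins and cystatins stored in the secondary granules of mouse neutrophils. Retnlg encodes a secreted resistin-like protein of mouse bone marrow and neutrophils. Chi3l1 encodes a chitin-binding protein without chitinase activity that neutrophils, macrophages and inflamed epithelium release. Neutrophils make their granule proteins in an order: primary granule proteins in early precursors, secondary granule proteins later, and surface receptors of the mature cell last.

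Windows of 250 bases before the annotated start are shown for S100a8 and S100a9, which had the most alike values of any pair here, and for Ngp and Chi3l1, whose values in the library labelled Rag2 knockout stood apart from theirs. The sequences are those of RefSeq on GRCm38, the build that the submitters name as mm10, written on the strand of the gene. Capitals mark the letters TTNNGNAA on either strand, a loose form of the motif of C/EBP factors, and TATAAA, the TATA box, on the gene's own strand. The windows lie at chr3:90668821-90669070 (plus strand) for S100a8, chr3:90695722-90695971 (minus strand) for S100a9, chr9:110419558-110419807 (plus strand) for Ngp and chr1:134181906-134182155 (plus strand) for Chi3l1, which RefSeq lists as Chil1.
S100a8: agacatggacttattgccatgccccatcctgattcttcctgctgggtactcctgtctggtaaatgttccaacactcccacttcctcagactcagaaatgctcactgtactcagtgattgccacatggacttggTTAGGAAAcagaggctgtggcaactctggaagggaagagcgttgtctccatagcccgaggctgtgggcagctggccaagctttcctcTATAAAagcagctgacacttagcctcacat
S100a9: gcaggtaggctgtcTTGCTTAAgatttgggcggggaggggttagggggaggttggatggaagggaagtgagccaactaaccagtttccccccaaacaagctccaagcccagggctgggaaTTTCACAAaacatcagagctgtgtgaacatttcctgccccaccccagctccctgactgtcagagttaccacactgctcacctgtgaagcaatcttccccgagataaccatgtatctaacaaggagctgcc
Ngp: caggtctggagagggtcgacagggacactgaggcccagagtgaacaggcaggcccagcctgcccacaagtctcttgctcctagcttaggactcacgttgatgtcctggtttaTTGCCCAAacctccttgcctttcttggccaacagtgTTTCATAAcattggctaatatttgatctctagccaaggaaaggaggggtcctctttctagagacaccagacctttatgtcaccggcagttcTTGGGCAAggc
Chi3l1: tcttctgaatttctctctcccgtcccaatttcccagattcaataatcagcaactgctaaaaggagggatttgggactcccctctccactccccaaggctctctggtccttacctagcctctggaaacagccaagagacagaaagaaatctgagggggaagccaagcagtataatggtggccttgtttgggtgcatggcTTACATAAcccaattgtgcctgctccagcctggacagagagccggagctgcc

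The letters TTNNGNAA occurred in the windows of all 5 genes, Retnlg included, and in 36.8% of the 32851 windows of the same length in the RefSeq table. Ngp held 3 such matches and S100a9 held 2. TATAAA stood 30 to 25 bases before the start of S100a8 and in no other of the 5 windows, against 7.59% of all windows. The ETS letters GAGGAA, searched on both strands for PU.1, were found in S100a8 alone among the 5 (23.3% of all windows), and the NF-kappaB letters (GGG, any 5 bases, then CC), on both strands, in Chi3l1 alone (45.8%). The STAT letters TTCNNNGAA, on both strands, were in none of the 5 windows and in 7.02% of all. These are matches of letters and do not show binding.

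All 4 libraries carried the stromal identity that the sort aims at. The summed FPKM (fragments counted per transcript length and per size of the library) of 10 fibroblast markers was 12380 in the library labelled IL-10 knockout and 12710 in C57BL/6J wild type, with 11430 in the library labelled Rag2 knockout and 11830 in BALB/c wild type. Transcripts of excluded cells remained: Ptprc, the gene of CD45, had an FPKM of 43.1 in the library labelled IL-10 knockout against 3.34 in C57BL/6J wild type, with 11.5 in the library labelled Rag2 knockout against 8.31 in BALB/c wild type. Il10 had an FPKM of 130 in the library labelled IL-10 knockout against 3.33 in C57BL/6J wild type. Whole-gene FPKM do not show whether a deleted part is present, so this higher value is no check of the genotype in either direction. Rag2 was listed at 0.712 FPKM in the library labelled Rag2 knockout and at 0 in BALB/c wild type, which gives no check either. Sex-linked genes separated the C57BL/6J libraries: Xist had an FPKM of 44.9 in the library labelled IL-10 knockout and 23.0 in C57BL/6J wild type, while the Y-linked Ddx3y had 0.0269 and 16.9 FPKM in the same libraries, so that C57BL/6J wild type held both. The BALB/c libraries were alike, with Xist at 0.105 FPKM in the library labelled Rag2 knockout and 0.0509 in wild type and Ddx3y at 31.5 and 36.3 FPKM in the same libraries. Genotype and sex cannot be told apart in the IL-10 comparison, nor genotype and individual animals in either, nor more cells of a type and more RNA per cell. The estimated depth ranged from 8379000 to 9951000 fragments.

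S100a8 (chromosome 3, 90669071 to 90670034) had an FPKM of 1624 in the library labelled IL-10 knockout against 0.621 FPKM in C57BL/6J wild type. In the BALB/c libraries it had 75.1 FPKM in the library labelled Rag2 knockout against 3.81 FPKM in wild type. It was thus among the most abundant transcripts of the library labelled IL-10 knockout (rank 30 of 23284) and close to the lower limit of detection in C57BL/6J wild type. Differences are given as differences in log2 of FPKM plus 1; they were 9.97 for the IL-10 comparison and 3.98 for the Rag2 comparison.

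**Figure D1:**
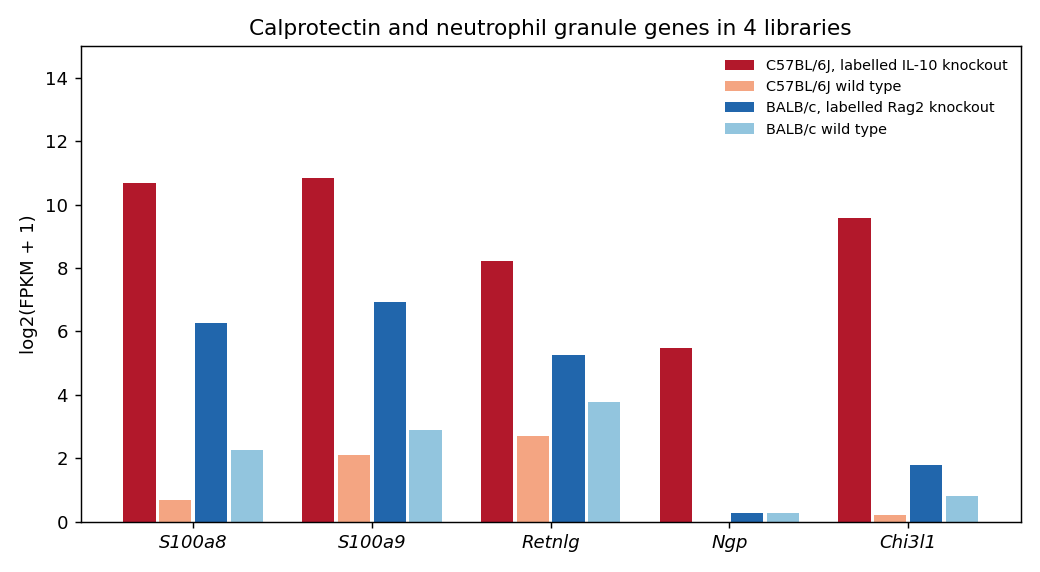
Levels of the 5 genes as log2(FPKM + 1), 1 bar per library, with C57BL/6J libraries in red shades and BALB/c libraries in blue shades. The library labelled IL-10 knockout is highest for every gene, and Ngp, listed at 0 in C57BL/6J wild type, has no bar there.

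S100a9 (chromosome 3, 90692630 to 90695721), the partner subunit, had an FPKM of 1833 in the library labelled IL-10 knockout against 3.27 FPKM in C57BL/6J wild type, a log2 difference of 8.75. It had 121 FPKM in the library labelled Rag2 knockout against 6.45 FPKM in BALB/c wild type, a log2 difference of 4.03. The subunits kept close to each other wherever both were abundant. FPKM of S100a9 divided by that of S100a8, both per length, was 1.13 in the library labelled IL-10 knockout and 5.26 in C57BL/6J wild type, where it rests on very few fragments. The same ratio was 1.61 in the library labelled Rag2 knockout and 1.69 in BALB/c wild type.

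Chi3l1 (chromosome 1, 134182156 to 134190031) had an FPKM of 756 in the library labelled IL-10 knockout against 0.154 FPKM in C57BL/6J wild type, a log2 difference of 9.36. Its level was 2.44 FPKM in the library labelled Rag2 knockout against 0.744 FPKM in BALB/c wild type, a log2 difference of 0.98. The gap between the knockout-labelled libraries was wider for Chi3l1 than for calprotectin: its level in the library labelled IL-10 knockout was, in FPKM, 310 times that in the library labelled Rag2 knockout, against 21.6 times for S100a8 and 15.2 times for S100a9. Chi3l1 reached 0.465 of the level of S100a8 in the library labelled IL-10 knockout and 0.0325 of it in the library labelled Rag2 knockout. In the wild types the share was 0.248 in C57BL/6J and 0.195 in BALB/c, where both genes rest on few fragments.

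Retnlg (chromosome 16, 48872608 to 48874498) had an FPKM of 298 in the library labelled IL-10 knockout against 5.43 FPKM in C57BL/6J wild type, a log2 difference of 5.54. It had 36.9 FPKM in the library labelled Rag2 knockout against 12.5 FPKM in BALB/c wild type, a log2 difference of 1.48. Retnlg differed from the other members in the wild types, where it was the most abundant of the 5 genes. Its FPKM was 0.183 of that of S100a8 in the library labelled IL-10 knockout. It was 8.74 times that of S100a8 in C57BL/6J wild type, where S100a8 rests on very few fragments. It was 0.491 of S100a8 in the library labelled Rag2 knockout and 3.29 times it in BALB/c wild type.

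Ngp (chromosome 9, 110419808 to 110423012) had an FPKM of 43.5 in the library labelled IL-10 knockout and was listed at 0 in C57BL/6J wild type, so no ratio is given. It had 0.216 FPKM in the library labelled Rag2 knockout and 0.210 FPKM in BALB/c wild type. Ngp was the only 1 of the 5 genes whose values in the BALB/c libraries were nearly equal. A listed 0 need not mean silence in these files, since the housekeeping gene Ppia was also listed at 0 in the library labelled IL-10 knockout and Gapdh was below 1 FPKM in all 4.

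The low values rest on very few fragments. A gene's FPKM is built from whole fragments, and once the worth of 1 fragment in each library was removed, the values of each gene stood in whole-number ratios (within 0.00039 of a whole number for values up to 200). The smallest whole numbers that gave these ratios were 2511 and 1 for S100a8 in the library labelled IL-10 knockout and C57BL/6J wild type, and 134 and 7 in the library labelled Rag2 knockout and BALB/c wild type. For Chi3l1 they were 9401 and 2, and 35 and 11, in the same order of libraries. Retnlg gave 1000 and 19, and 143 and 50, and S100a9 gave 2156 and 4, and 164 and 9. Ngp gave 174 in the library labelled IL-10 knockout and 1 in each BALB/c library. True counts may be a multiple of these, in which case the intervals below are too wide.

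On those counts, the FPKM of S100a8 was 2610 times that of C57BL/6J wild type in the library labelled IL-10 knockout, with a 95% exact Clopper-Pearson counting interval of 469 to 103000. The ratio was 4890 for Chi3l1 (1350 to 40400), 561 for S100a9 (219 to 2060) and 54.8 for Retnlg (34.9 to 91.4). In the Rag2 comparison it was 19.7 for S100a8 (9.3 to 49.9), 18.7 for S100a9 (9.63 to 41.7), 3.27 for Chi3l1 (1.62 to 7.14) and 2.94 for Retnlg (2.12 to 4.14). The intervals describe these libraries and are no test, since the genes were chosen by these differences. They hold the error of counting alone, which PCR copies of the same molecule can make larger than calculated, and they say nothing of the spread between animals.

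**Figure D2:**
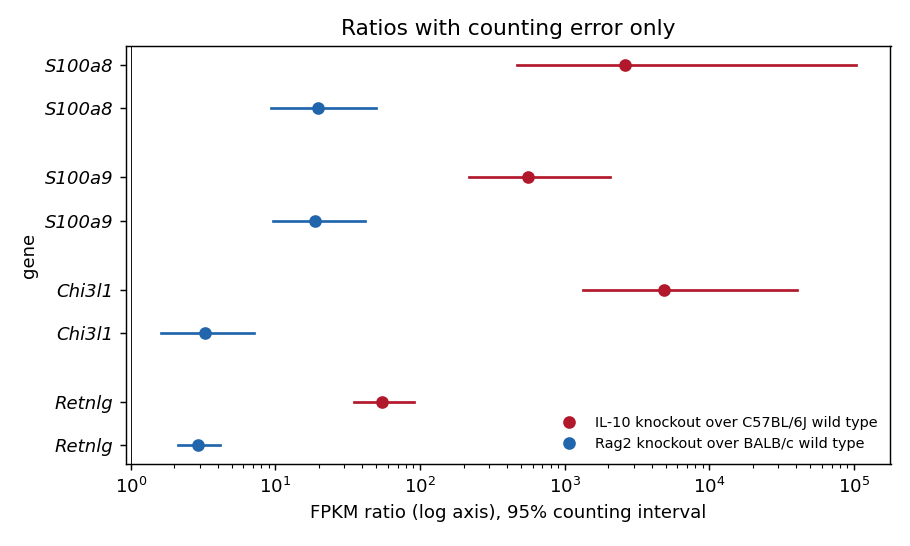
FPKM ratios of 4 genes on a log axis, with 95% counting intervals as lines, for the library labelled IL-10 knockout over C57BL/6J wild type (red) and the library labelled Rag2 knockout over BALB/c wild type (blue). The red interval lies to the right of the blue one for every gene, and it is widest for S100a8, which has 1 fragment in C57BL/6J wild type.

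On the log2(FPKM + 1) scale all 5 genes were at least 4-fold higher in the library labelled IL-10 knockout than in C57BL/6J wild type, as were 3.74% of the 12790 genes that reached 1 FPKM in 1 of these libraries. At 2-fold the share of those genes was 10.1% higher and 3.82% lower. In the Rag2 comparison 4 of the 5 genes passed the FPKM minimum and 3 were at least 2-fold higher, against 4.42% higher and 2.03% lower among the 12336 genes compared. Past 4-fold were S100a8 and S100a9, against 1.22% of those genes. Retnlg, at 1.48, was the nearest member past the 2-fold line, Chi3l1 at 0.98 lay just short of it, and Ngp did not pass the minimum. Because the genes were chosen for these differences, the shares only place them. Of all genes past 2-fold in the Rag2 comparison 68.5% were higher, and 51.0% when the libraries were rescaled without small RNA rows. That rescaling moved the median of all genes, 0.00 as deposited, to -0.12 for the IL-10 and -0.14 for the Rag2 comparison. The knockout comparisons share no library but differ in strain as well as genotype, and the log2 difference of the IL-10 comparison exceeded that of the Rag2 comparison by 8.38 for Chi3l1, 5.99 for S100a8, 5.47 for Ngp, 4.72 for S100a9 and 4.05 for Retnlg.

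**Figure D3:**
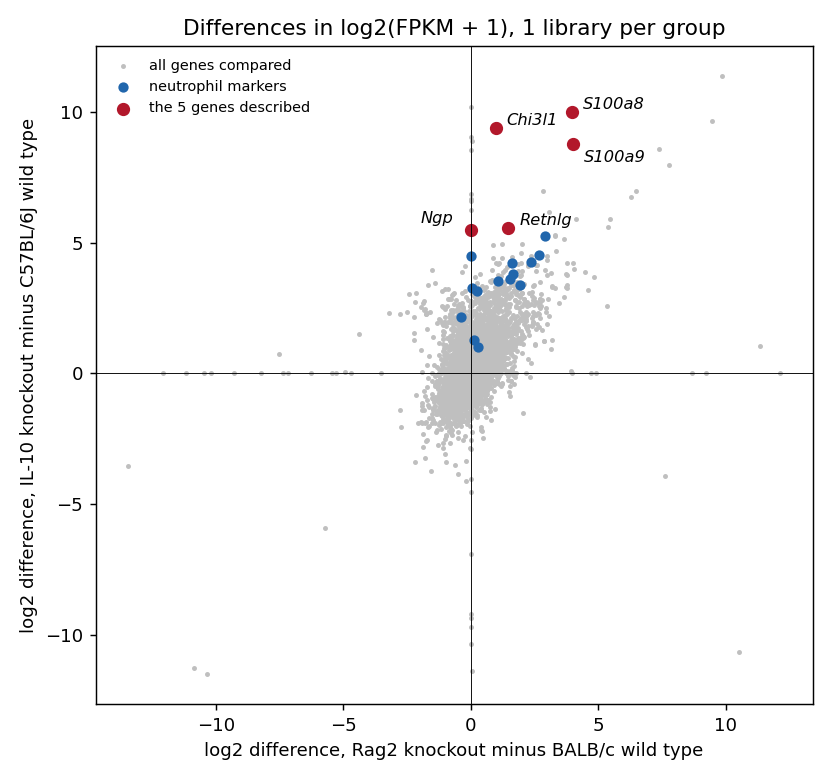
Difference in log2(FPKM + 1) for the library labelled Rag2 knockout minus BALB/c wild type (x) and the library labelled IL-10 knockout minus C57BL/6J wild type (y), with 1 point per gene. S100a8 and S100a9 lie far from 0 on both axes, whereas Ngp lies at 0.01 on the x axis and Chi3l1 at 0.98.

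By FPKM ratio, S100a8, S100a9 and Retnlg differed by less between the wild types than in either knockout comparison, whereas Chi3l1 differed by more than in the Rag2 comparison. S100a8 had 3.81 FPKM in BALB/c against 0.621 FPKM in C57BL/6J (log2 difference 1.57), on 7 and 1 fragments, with a counting interval of the FPKM ratio of 0.788 to 277. S100a9 had 6.45 FPKM in BALB/c against 3.27 FPKM in C57BL/6J (0.80), with an interval of 0.551 to 8.77. Retnlg had 12.5 FPKM in BALB/c against 5.43 FPKM in C57BL/6J (1.07), with an interval of 1.34 to 4.14. Chi3l1 had 0.744 FPKM in BALB/c against 0.154 FPKM in C57BL/6J, an FPKM ratio of 4.82 beside 3.27 in the Rag2 comparison, with an interval of 1.05 to 44.8, and it stayed below the FPKM minimum in both wild types. That ratio rests on 11 and 2 fragments, and its interval overlaps that of the Rag2 comparison (1.62 to 7.14). On the log2(FPKM + 1) scale the order was reversed, with 0.6 between the wild types and 0.98 in the Rag2 comparison. Of the 3 genes that passed the minimum, 2 were at least 2-fold higher in BALB/c, against 1.81% higher and 2.17% lower among 12290 genes. This comparison shares a library with each knockout comparison. From lowest to highest, S100a8, S100a9, Retnlg and Chi3l1 had the same order of libraries: C57BL/6J wild type, BALB/c wild type, the library labelled Rag2 knockout and the library labelled IL-10 knockout.

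S100a8 and S100a9 are neighbours on chromosome 3, with 22.6 kb and 0 RefSeq genes between them, inside a cluster of S100 genes. None of the other genes of that cluster differed by as much, though some were higher in the same libraries. S100a6, a calcium-binding gene common in fibroblasts that starts at -56.2 kb from the start of S100a8, had an FPKM of 1100 in the library labelled IL-10 knockout against 1291 FPKM in C57BL/6J wild type, with 1552 FPKM in the library labelled Rag2 knockout against 1111 FPKM in BALB/c wild type. S100a7a, whose start lies at -17.1 kb, had an FPKM of 2.46 in the library labelled IL-10 knockout against 4.93 in C57BL/6J wild type, with 0.967 in the library labelled Rag2 knockout against 4.70 in BALB/c wild type. S100a4, which is common in fibroblasts and leukocytes, was at least 2-fold higher in both knockout comparisons (1.34 and 1.02), as was the epithelial S100a14 (1.32 and 1.36). Of all 17 S100 genes found, 11 passed the FPKM minimum in the IL-10 comparison, with 4 at least 2-fold higher and 0 lower. In the Rag2 comparison 13 passed, with 5 higher and 2 lower. S100a8 and S100a9, chosen for their differences, are among the higher ones in both. Over all genes compared 10.1% were higher and 3.82% lower in the IL-10 comparison, with 4.42% and 2.03% in the Rag2 comparison.

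**Figure D4:**
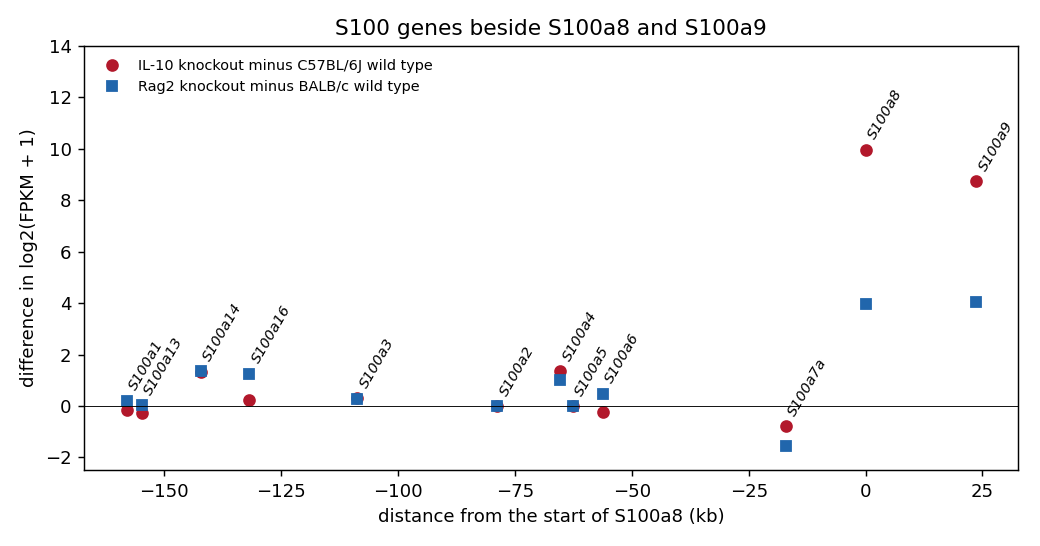
Difference in log2(FPKM + 1) of S100 genes against the distance of their start from that of S100a8, in kb. S100a8 and S100a9 reach 9.97 and 8.75 for the IL-10 comparison (circles; squares are the Rag2 comparison), and the other genes of the cluster lie between -1.54 and 1.36 in both comparisons.

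The relatives of Retnlg and Chi3l1 were mixed. Retnlb, a resistin-like gene of goblet cells, had an FPKM of 56.6 in the library labelled IL-10 knockout against 0.469 in C57BL/6J wild type (5.29), with 10.8 in the library labelled Rag2 knockout against 0.205 in BALB/c wild type (3.29). Retnla, a resistin-like gene of alternatively activated macrophages, had an FPKM of 3.36 in the library labelled IL-10 knockout against 8.50 in C57BL/6J wild type (-1.12), with 9.25 in the library labelled Rag2 knockout against 9.77 in BALB/c wild type. Retn was listed at 0 in all 4 libraries. Among chitinase-like genes, Chi3l3, a gene of mouse macrophages and neutrophils, had an FPKM of 15.7 in the library labelled IL-10 knockout against 0.172 in C57BL/6J wild type, with 8.60 in the library labelled Rag2 knockout against 0.0753 in BALB/c wild type. Chi3l3 thus differed by similar amounts in both comparisons (3.83 and 3.16), unlike Chi3l1. It has a near-identical copy, Chi3l4, listed at 0 throughout, so reads of the pair may have been split. The chitinase genes Chia and Chit1 were listed at 0 in all libraries. Of the 8 genes of this family found, 4 passed the FPKM minimum in each comparison. Of these, 2 were at least 2-fold higher in the IL-10 comparison and Chi3l3 alone was for Rag2, with 0 lower. Of 13 cathelicidin and stefin genes, Ngp included, 8 were higher in the IL-10 comparison and 3 for Rag2, with 0 lower, but the stefins are near-identical copies whose reads may have been split. The 8 were below 1 FPKM in C57BL/6J wild type and passed the minimum only through the library labelled IL-10 knockout. Over all genes compared 10.1% were higher in the IL-10 and 4.42% in the Rag2 comparison.

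Some other secondary granule genes were, like Ngp, low in the library labelled Rag2 knockout. Camp, which encodes the mouse cathelicidin, had an FPKM of 21.6 in the library labelled IL-10 knockout and was listed at 0 in C57BL/6J wild type; it had 0.264 FPKM in the library labelled Rag2 knockout and 0.256 in BALB/c wild type. Ltf, the gene of the iron-binding lactoferrin, had an FPKM of 9.44 in the library labelled IL-10 knockout against 0.0902 in C57BL/6J wild type, with 0.0814 in the library labelled Rag2 knockout against 0.0396 in BALB/c wild type. The collagenase gene Mmp8 had an FPKM of 7.90 in the library labelled IL-10 knockout and was listed at 0 in C57BL/6J wild type, with 0.276 in the library labelled Rag2 knockout against 0.0893 in BALB/c wild type. In the BALB/c libraries these values stand for 6 fragments or fewer, by the same smallest whole numbers. FPKM of Camp divided by that of Ngp was 0.497 in the library labelled IL-10 knockout and 1.22 in both BALB/c libraries, where each gene rests on 1 fragment.

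Of the 14 secondary and tertiary granule genes of the list, all were at least 2-fold higher in the library labelled IL-10 knockout and 0 lower, with a median log2 difference of 3.32 beside 0.00 over all genes compared. Over all genes 10.1% were higher in the IL-10 and 4.42% in the Rag2 comparison. Several of the 14, such as Camp, Ltf and Mmp8, were below 1 FPKM in C57BL/6J wild type. They passed the minimum only through the library labelled IL-10 knockout, which favoured calls of higher. In the Rag2 comparison 10 of the 14 passed the FPKM minimum, with 7 higher and 0 lower. Those 7 included Lcn2, the siderophore-binding lipocalin, which had 35.2 FPKM in the library labelled Rag2 knockout against 3.26 in BALB/c wild type, and Hp, haptoglobin, with 13.2 against 0.970 FPKM. Both are also acute-phase genes of other cell types. Primary granule genes other than Prtn3 were scarce everywhere: Mpo, myeloperoxidase, had an FPKM of 1.93 in the library labelled IL-10 knockout against 0.196 in C57BL/6J wild type, with 0.220 in the library labelled Rag2 knockout against 0.129 in BALB/c wild type. Elane, neutrophil elastase, had an FPKM of 0.836 in the library labelled IL-10 knockout and was listed at 0 in the other 3. Of the 6 primary granule genes 3 passed the FPKM minimum in the IL-10 comparison and 2 were at least 2-fold higher. In the Rag2 comparison only 1 passed, Prtn3, and it was less than 2-fold apart (-0.65). Prtn3 had an FPKM of 7.19 in the library labelled IL-10 knockout against 3.90 in C57BL/6J wild type. Its FPKM was 2.57 in the library labelled Rag2 knockout against 4.60 in BALB/c wild type.

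Most genes of the mature neutrophil's surface and signalling were higher in both knockout-labelled libraries. Csf3r, the receptor of the growth factor G-CSF, had an FPKM of 24.4 in the library labelled IL-10 knockout against 0.102 in C57BL/6J wild type, with 8.13 in the library labelled Rag2 knockout against 0.445 in BALB/c wild type. Cxcr2, the receptor of neutrophil chemokines, had an FPKM of 10.5 in the library labelled IL-10 knockout and 1.13 in the library labelled Rag2 knockout and was listed at 0 in both wild types. Of the 17 genes of that list 16 were at least 2-fold higher in the IL-10 comparison (median 3.85 over the 16 that passed the FPKM minimum), with 12 in the Rag2 comparison (median 1.99 over 13) and 0 lower in either. Over all genes compared 10.1% were higher in the IL-10 and 4.42% in the Rag2 comparison. Most genes of the list that passed were below 1 FPKM in the wild type and passed only through the knockout-labelled library. The minimum thus favoured high counts and medians, which only describe. Set against Csf3r in the same library, FPKM of S100a8 was 66.6 times as high in the library labelled IL-10 knockout. It was 6.11 times as high in C57BL/6J wild type, where S100a8 rests on 1 fragment by the smallest whole numbers. This ratio was 9.24 in the library labelled Rag2 knockout and 8.56 in BALB/c wild type, where S100a8 rests on 7 fragments.

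**Figure D5:**
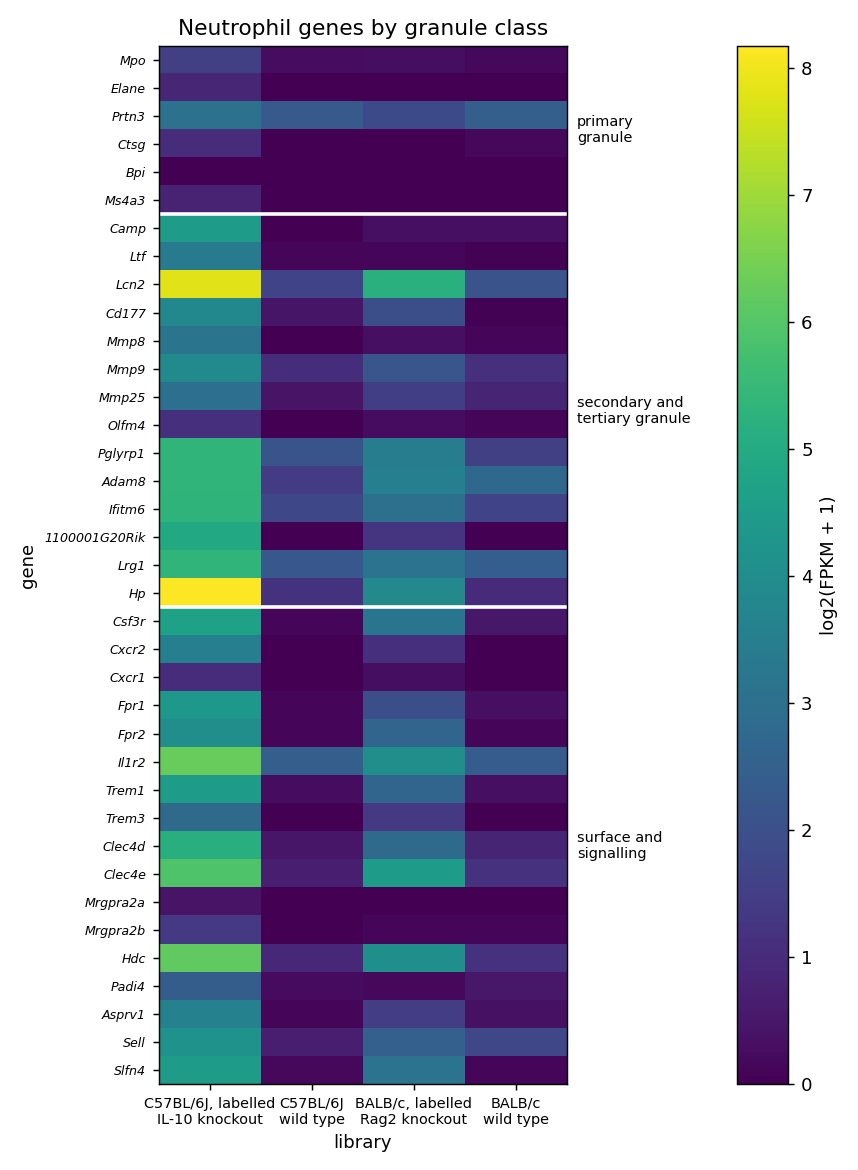
Levels of 37 neutrophil genes as log2(FPKM + 1), 1 row per gene and 1 column per library, grouped as primary granule, secondary and tertiary granule, and surface and signalling genes. Camp, Ltf and Mmp8 are near the floor of the scale in every library but the one labelled IL-10 knockout, whereas Csf3r, Trem1, Clec4e and Hdc stand above it in the library labelled Rag2 knockout too.

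Markers of some cells that the sort leaves out, such as neutrophils and epithelium, were higher in sum in both knockout-labelled libraries than in their wild types. Others were not: all 8 B and plasma cell markers were at least 2-fold lower in the Rag2 comparison. The part of such cells in the result was not tested. Of 16 neutrophil markers 15 were found, and many of these also stand in the lists above. Their summed FPKM was 307 in the library labelled IL-10 knockout against 7.62 in C57BL/6J wild type, with 61.0 in the library labelled Rag2 knockout against 9.58 in BALB/c wild type. All 15 were above 0 in the library labelled IL-10 knockout, whereas 5 were listed at 0 in C57BL/6J wild type (Cxcr2, Cxcr1, Elane, Camp and Mmp8), Elane alone in the library labelled Rag2 knockout, and Cxcr2, Cxcr1 and Elane in BALB/c wild type. In the IL-10 comparison 14 of the 15 passed the FPKM minimum and all 14 were at least 2-fold higher. In the Rag2 comparison 8 passed and all 8 were higher. In both comparisons most of the genes that passed were below 1 FPKM in the wild type, so they passed only through the knockout-labelled library. The minimum thus favoured calls of higher, and these counts are no test. Over all genes compared 10.1% were higher in the IL-10 and 4.42% in the Rag2 comparison.

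The 12 pan-leukocyte markers summed to an FPKM of 861 in the library labelled IL-10 knockout against 88.9 in C57BL/6J wild type, with all 12 at least 2-fold higher. They summed to 243 FPKM in the library labelled Rag2 knockout against 156 in BALB/c wild type, with 1 of 12, Plek, higher. S100a8 differed by more than Ptprc did: its FPKM divided by that of Ptprc was 37.7 in the library labelled IL-10 knockout and 0.186 in C57BL/6J wild type, with 6.51 in the library labelled Rag2 knockout and 0.459 in BALB/c wild type. The wild-type ratios rest on 1 fragment of S100a8 in C57BL/6J and 7 in BALB/c. For Retnlg this ratio to Ptprc was 6.9 in the library labelled IL-10 knockout and 1.63 in C57BL/6J wild type, with 3.2 in the library labelled Rag2 knockout and 1.51 in BALB/c wild type. Macrophage and monocyte markers summed to an FPKM of 900 in the library labelled IL-10 knockout against 173 in C57BL/6J wild type (10 of 13 higher), and 540 in the library labelled Rag2 knockout against 295 in BALB/c wild type (3 of 13 higher).

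Epithelial markers, of which none was at 0, summed to an FPKM of 389 in the library labelled IL-10 knockout against 100 in C57BL/6J wild type, with 163 in the library labelled Rag2 knockout against 39.0 in BALB/c wild type. Of these 12 markers 11 were at least 2-fold higher in each comparison. Eosinophil markers summed to 10.7 FPKM for the library labelled IL-10 knockout against 1.20 in C57BL/6J wild type, with 3 of 8 at least 2-fold higher (Ccr3, Siglec5 and Prg2), while Epx, the eosinophil peroxidase gene, had 0.0479 FPKM and a listed 0 in the same libraries. They summed to 2.57 FPKM in the library labelled Rag2 knockout against 1.43 in BALB/c wild type. There 0 of the 8 passed the FPKM minimum, so none could be called. The 10 mast cell markers summed to 11.1 FPKM for the library labelled IL-10 knockout against 4.60 in C57BL/6J wild type (2 higher of 4 past the minimum). Their sum was 7.45 FPKM in the library labelled Rag2 knockout against 7.93 in BALB/c wild type (0 higher of 5 past the minimum). T cell markers summed to an FPKM of 119 in the library labelled IL-10 knockout against 8.96 in C57BL/6J wild type, with 6.48 in the library labelled Rag2 knockout against 20.4 in BALB/c wild type. B and plasma cell markers summed to an FPKM of 486 in the library labelled IL-10 knockout against 248 in C57BL/6J wild type, with 2.66 in the library labelled Rag2 knockout against 465 in BALB/c wild type. Blood endothelial markers were 0 of 7 past 2-fold in either comparison, and lymphatic endothelial markers 2 of 5 lower in the IL-10 comparison, with 0 in the Rag2 comparison. The 6 erythroid genes summed to an FPKM of 244 in the library labelled IL-10 knockout against 41.8 in C57BL/6J wild type, with 82.2 in the library labelled Rag2 knockout against 53.8 in BALB/c wild type.

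Most receptors through which calprotectin and Chi3l1 act differed by less than 2-fold. Tlr4, a receptor of calprotectin, had an FPKM of 12.2 in the library labelled IL-10 knockout against 10.3 in C57BL/6J wild type, with 10.6 in the library labelled Rag2 knockout against 12 in BALB/c wild type. Ager, the gene of the receptor RAGE, stayed below 1 FPKM in all 4 libraries. Il13ra2, a receptor chain that binds CHI3L1, had an FPKM of 2.15 in the library labelled IL-10 knockout against 0.430 in C57BL/6J wild type, with 6.99 in the library labelled Rag2 knockout against 4.08 in BALB/c wild type. The co-receptor gene Cd14, also a myeloid gene, stood out with an FPKM of 370 in the library labelled IL-10 knockout against 19.2 in C57BL/6J wild type (4.2), with 128 in the library labelled Rag2 knockout against 31.7 in BALB/c wild type (1.98). Of the 10 genes of this list 9 passed the FPKM minimum in each comparison. In the IL-10 comparison 2 were at least 2-fold higher and 1, Cd36, lower, with 1 higher and 1 lower in the Rag2 comparison. Over all genes compared 10.1% were higher and 3.82% lower in the IL-10 comparison, with 4.42% and 2.03% in the Rag2 comparison. With so few genes these counts only describe.

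Of 9 cytokines known to induce such genes, 8 were at least 2-fold higher in the IL-10 comparison (median 2.75), all but Il6. In the Rag2 comparison 6 were, with Csf3 below that line and Il17a and Il17f below 1 FPKM in both libraries. No cytokine of the list was at least 2-fold lower. Over all genes compared 10.1% were higher in the IL-10 and 4.42% in the Rag2 comparison. Csf3, the gene of G-CSF, which drives neutrophil production, had an FPKM of 59.7 in the library labelled IL-10 knockout against 1.88 in C57BL/6J wild type, with 5.09 in the library labelled Rag2 knockout against 2.34 in BALB/c wild type. Il1b had an FPKM of 511 in the library labelled IL-10 knockout against 32.3 in C57BL/6J wild type, with 236 in the library labelled Rag2 knockout against 30.5 in BALB/c wild type. Il17a, the T cell cytokine, had an FPKM of 22.4 in the library labelled IL-10 knockout against 0.356 in C57BL/6J wild type, with 0.214 in the library labelled Rag2 knockout against 0.416 in BALB/c wild type. Of 7 granulocyte transcription factors found, 5 passed the FPKM minimum, and 0 of those 5 were 2-fold apart in either comparison. Cebpb was among them, with an FPKM of 308 in the library labelled IL-10 knockout against 301 in C57BL/6J wild type. Cebpe and Gfi1 stayed below the minimum, where the added 1 FPKM shrinks any difference. Cebpe, which drives secondary granule genes, had 8 fragments in the library labelled IL-10 knockout against 0 in C57BL/6J wild type, and Gfi1, a repressor needed for neutrophil maturation, had 9 against 2 in the same libraries.

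The genes most like each member over the 4 libraries were found by Euclidean distance between values of log2(FPKM + 1), each gene centred on its own mean. S100a8 and S100a9 were nearest to each other (0.87), followed for both by Hp and Lcn2. Retnlg was nearest to Clec4d (0.74), a myeloid lectin gene, Stfa2l1 (0.76), a stefin gene, and Fpr1 (0.95), the receptor for formylated bacterial peptides. Ngp was nearest to Il10 (0.86), Camp (0.88) and Il17a (1.04), each of them at 21.6 FPKM or more in the library labelled IL-10 knockout and at most 7.04 FPKM in the others. Chi3l1 had no close partner: its nearest genes were Hp (2.51), S100a9 (3.0) and Ngp (3.05). With 4 libraries, such distances only describe, and a high value in 1 library sets most of them.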

How the data were processed

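RNA of sorted colonic stromal cells was measured in 4 libraries, 1 per group. The values deposited by the authors are FPKM per gene symbol. Per the submitters' processing notes, the tools were Cuffdiff 2.2.1, SAMtools 0.1.18, Bowtie2 2.2.8 and TopHat2 2.1.1, on build mm10; annotation and strand setting: not given in the sources used here. Libraries were made with a stranded mRNA kit, per the labels. FPKM were compared as log2(FPKM + 1) with Python 3.11.15, pandas 2.3.3, numpy 2.4.6 and scipy 1.17.1, for genes with at least 1 FPKM in either library; genes at least 2-fold apart (log2 difference of 1) were counted. With 1 library per group no test was made.

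The worth of 1 fragment in each library was read from the ratios of FPKM below 0.5, and the smallest whole numbers fitting a gene's values within 0.01 were taken as its fragments. On simulated counts this returned the drawn numbers for 87.3% of 464 genes, and for 96.1% of the 332 with 3 or more values tested; fragments are printed only for genes of that kind. Depth was estimated from transcripts of at least 1000 nt in GENCODE M21, of which 61 of 111 lay within 5% of the fitted line, so it is approximate. The members and the 23 gene lists were chosen with earlier results of these data known. Of the distinct listed genes 206 were found and 4 were not: Ly6g, Spi1, Chil5 and Chil6, not used here. Named genes were the members, their 3 nearest genes, and listed genes at 1 FPKM or more with large differences; some listed genes were named for their role, after their values were seen. Promoters are those of RefSeq for GRCm38. Alternatives were other pseudocounts, minimums and scalings.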

Additional observations from a re-analysis of the deposited data

How the results depend on the processing

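No replicate could be left out and no paired analysis was possible because each group has 1 library. Over 6 alternatives (pseudocounts of 0.1 and 5, no FPKM minimum, a minimum of 5, median-of-ratios size factors, and rescaling to equal sums without small RNA rows), all 5 genes remained at least 2-fold higher in the library labelled IL-10 knockout. None of the 12 differences of members that passed the minimum changed sign, but a pseudocount or a minimum cannot change a sign. Rescaling moved the median of all genes only to -0.12 for the IL-10, -0.14 for the Rag2 and 0.07 for the wild-type comparison. The kept signs are thus no support for the differences. The size did change: in the IL-10 comparison S100a8 ranged from 8.18 to 11.14, Chi3l1 from 7.21 to 11.54, S100a9 from 7.80 to 9.09, Ngp from 3.28 to 8.77 and Retnlg from 4.86 to 5.75, with the low end at a pseudocount of 5 and the high end at 0.1. Chi3l1 in the Rag2 comparison ranged from 0.37 to 1.59 and so lay on both sides of 2-fold, which made 4 members higher there with a pseudocount of 0.1 and after rescaling, beside 3. Between the wild types 2 members were at least 2-fold higher, 0 with a pseudocount of 5, 1 with a minimum of 5 and 3 after rescaling.

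Counts over all genes moved more. In the IL-10 comparison the 1297 higher genes became 611 with a pseudocount of 5 and 846 with a minimum of 5, and the 488 lower became 787 with a pseudocount of 0.1, 182 with 5 and 905 after rescaling. In the Rag2 comparison the 545 higher became 278 with a pseudocount of 5, and the 251 lower became 532 with 0.1, 68 with 5, 159 with a minimum of 5 and 634 after rescaling. Between the wild types the 223 higher became 477 with a pseudocount of 0.1, 56 with 5, 129 with a minimum of 5 and 512 after rescaling, and the 267 lower became 452 with a pseudocount of 0.1, 104 with 5 and 423 after rescaling. Beyond what the constructions themselves change, the cause was not tested. Depth limits the wild-type values above all, since S100a8, S100a9, Chi3l1 and Ngp rest there on 11 fragments or fewer by the smallest whole numbers.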
